A study of Mus musculus with 14 samples.

Results

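The oxidative stress defence genes controlled by Nrf2 were followed in mouse liver after bile diversion to the ileum or gastric bypass. The set held 10 genes: *Nfe2l2*, *Keap1*, *Gclc*, *Gclm*, *Txnrd1*, *Srxn1*, *Nqo1*, *Ephx1*, *Hmox1* and *Cat*. They were taken by symbol from the 25212 genes of the count table with no cutoff on a measured value, though earlier results of these data were known. Each symbol was listed once, and all 10 passed the filter on low counts, as did 14252 genes in all.

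Nrf2, the protein encoded by *Nfe2l2*, is a transcription factor that Keap1 holds in the cytoplasm and delivers for degradation. When oxidants or electrophiles modify the cysteines of Keap1, Nrf2 escapes, enters the nucleus and, paired with a small Maf protein, binds antioxidant response elements near its target genes. In liver these targets make and recycle glutathione and thioredoxin, and they detoxify quinones, epoxides and haem. Catalase, which splits hydrogen peroxide in peroxisomes, is part of the same defence.

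The livers came from male C57BL/6 mice with diet-induced obesity, fed a high fat diet (HFD) from a young age and kept on it after surgery, with 1 RNA-seq library per mouse. The DIO group (5 mice) had no surgery and was not sham-operated. In the GB-IL group (4 mice) the gallbladder was joined to the ileum and the common bile duct was tied, and the RYGB group (5 mice) had Roux-en-Y gastric bypass. The labels place the operated livers 8 weeks after surgery, whereas a figure legend of the study names an earlier time for liver expression, and no allele or transgene is named for any group.

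Total counts per liver ran from 18223135 to 28656631. The first principal component of all tested genes held 48.5% of the variance, and GB-IL 1, GB-IL 2 and GB-IL 3 lay at -134, -106 and -20.1 on it. GB-IL 4 lay at 35.3, inside the DIO range of 21.9 to 45.7, and RYGB 5 lay at -17.4, so GB-IL results are given with and without GB-IL 4. Whether GB-IL 4 carries the right label cannot be told from the counts. Markers of hepatocytes summed to 127500 ± 16280 CPM, counts scaled to a common library total, in GB-IL (SD, n = 4) and 134400 ± 8437 CPM in DIO (n = 5; exact two-sided permutation p = 0.476). The sum is mostly *Alb*, at 76760 and 99360 CPM, and single markers lay on both sides of 0, *Ttr* at -1.20 and *Fgb* at 1.57 on the log2 scale (adjusted p = 0.0816 and 0.0489 by edgeR's quasi-likelihood test). In whole liver, fewer cells of a type and less RNA per cell cannot be told apart.

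The antioxidant response element is short, and its core was looked for in the RefSeq promoter windows of the set (build GRCm38.p6, 250 bases before to 50 bases after each annotated start). Windows were held for 8 of the 10 genes, with none for *Gclc* and *Hmox1*. The letters TGACNNNGC, searched on both strands, occurred in 4 of the 10 windows of these 8 genes (*Nfe2l2*, *Gclm*, *Srxn1* and *Txnrd1*), and in 12.4% of all 32817 windows. In *Srxn1* that match lay after the start, at positions 28 to 36. The close spelling TGAGNNNGC, added after the windows had been seen, occurred in 17.7% of all windows and, within the set, only in that of *Srxn1*, at positions -158 to -150 and -45 to -37. Stretches around 4 of the matches are printed to show what such an element looks like in the genes whose values follow. The matched letters are in capitals, and those of *Srxn1* hold the close spelling.
Gclm, chr3:122245403-122245451, plus strand: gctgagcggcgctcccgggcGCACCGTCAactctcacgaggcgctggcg
Srxn1, chr2:152105346-152105394, plus strand: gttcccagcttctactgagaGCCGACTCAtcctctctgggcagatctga
Srxn1, chr2:152105459-152105507, plus strand: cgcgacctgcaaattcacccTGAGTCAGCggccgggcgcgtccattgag
Txnrd1, chr10:82859094-82859142, plus strand: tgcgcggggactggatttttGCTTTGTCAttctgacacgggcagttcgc
The *Gclm* match lay at -134 to -126 from the start, and that of *Txnrd1* at -92 to -84 from the second of its 3 starts. A match is a run of letters, not a measured binding site.

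In unoperated obese liver the set spanned a wide range of levels. Per length, as RPKM (CPM divided by the exon length in kilobases), *Cat* stood first at 1055 ± 128 in DIO (SD, n = 5), followed by *Ephx1* at 193 ± 51.4 and *Gclc* at 55.0 ± 34.5. *Gclm* was at 28.2 ± 5.67, in a range that overlapped that of *Gclc*, and then came *Txnrd1* (19.2 ± 1.40), *Nfe2l2* (19.1 ± 2.25), *Hmox1* (17.3 ± 2.65) and *Srxn1* (13.9 ± 3.08), whose neighbours in the order overlapped from liver to liver. *Keap1* (8.46 ± 1.03) and *Nqo1* (4.75 ± 2.40) were lowest and also overlapped. The place of *Txnrd1* depends on the length used: with its longest transcript (3622 bases, against 7086 bases of summed exons) it was at 37.5 RPKM in DIO, above *Gclm* at 31.8. In GB-IL the level of *Hmox1* stood the third, at 58.6 ± 35.0 RPKM (n = 4), but there every neighbouring pair in the order overlapped.

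The question of the first comparison was whether this defence differs between livers with bile diverted to the ileum and unoperated obese livers. *Hmox1* rose, and the other 9 genes did not pass the test. Of the 10 genes, 6 had higher and 4 lower means in GB-IL than in DIO, and 1 was called, as higher, by edgeR's quasi-likelihood test (adjusted p under a false discovery rate of 0.05), while 3.26% of all tested genes were called and 3.15% were called as higher. An unadjusted p under 0.05 was reached by 3 of the 10 and by 23.1% of all tested genes. The ranges of the groups overlapped for all 10 genes, and were apart for 4.17% of all tested genes. The median log2 fold change of the set was 0.03, and that of all tested genes was 0.04. The plot of log2 fold changes shows the 3 comparisons for each gene.

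**Figure D1:**
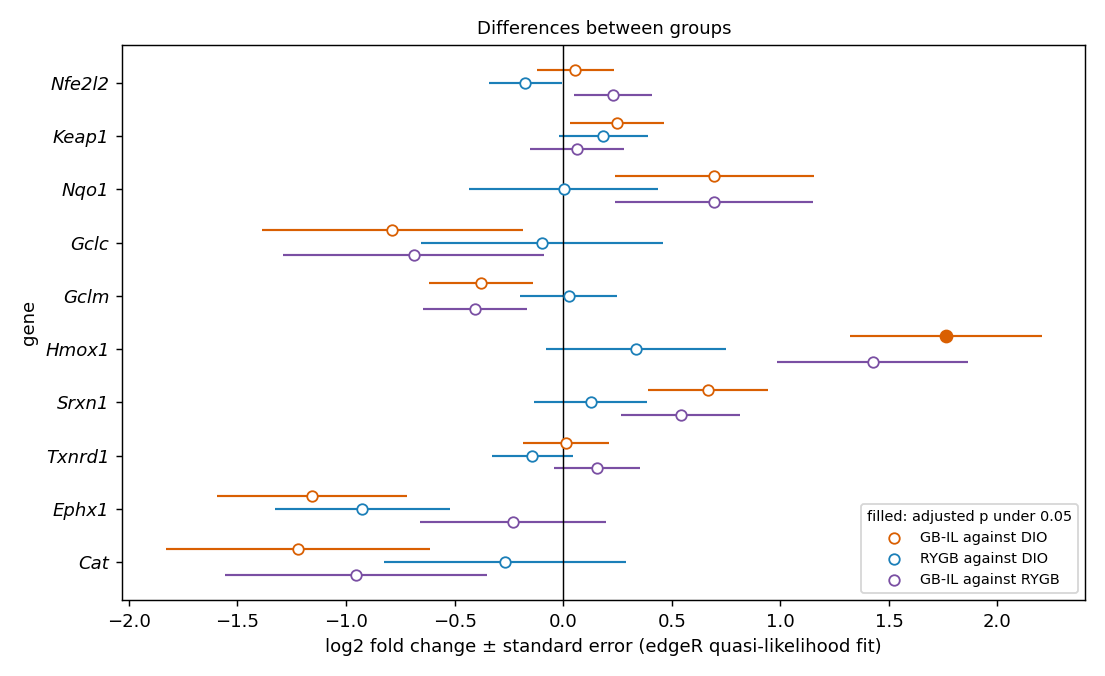
Log2 fold change (x axis) of the 10 genes between groups, with the standard error from edgeR's quasi-likelihood fit as a bar and filled points for an adjusted p under 0.05. Only *Hmox1* in GB-IL against DIO, at 1.76, is filled.

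*Hmox1* (ENSMUSG00000005413, chr8:75093621-75100589, plus strand, 5 exons in GRCm38) encodes haem oxygenase 1, which opens the haem ring to biliverdin, iron and carbon monoxide. Its levels in the 5 DIO livers were 28.5, 28.3, 34.3, 24.4 and 35.7 CPM. In GB-IL livers 1 to 4 they were 183, 88.4, 104.7 and 34.5 CPM, and in RYGB livers 1 to 5 they were 61.7, 18.2, 23.9, 22.05 and 65.0 CPM. GB-IL 1, 2 and 3 lay above every DIO and RYGB liver, and GB-IL 4 lay among the DIO livers. RYGB 1 and RYGB 5 lay above every DIO liver and the other 3 RYGB livers below every DIO liver. The log2 fold change was 1.76 ± 0.44 (SE) for GB-IL against DIO, or 3.39-fold (quasi-likelihood test of edgeR, p adjusted over all tested genes by Benjamini-Hochberg = 0.0437), and its p-value was the 400th smallest.

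The rise of *Hmox1* kept its direction in all 25 alternatives, with log2 fold changes from 1.32 to 2.04, but 12 of them passed the threshold. Adjusted p ran from 0.00326 with DESeq2 to 0.163 without GB-IL 1. The call was lost without any of the 5 DIO livers, without GB-IL 1, 2 or 3, and without RYGB 3 (0.0535) or RYGB 4 (0.0521). It was also lost with voom weighted by liver quality (0.0794), in a fit of DIO and GB-IL alone (0.0846) and with the replicate number as a block (0.0694).

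Markers of macrophages and monocytes, cells in which *Hmox1* is also expressed, moved with it. All 12 markers had higher means in GB-IL than in DIO, as had 7563 of all 14252 tested genes. Of the 12, 6 were called higher, against 3.15% of all tested genes: *Cd68*, *Lyz2*, *Itgam*, *Cd14*, *Trem2* and *Gpnmb*. No marker was at 0 throughout. Their summed level was 129 to 242 CPM in DIO, 1023, 780.5, 912 and 279 CPM in GB-IL livers 1 to 4, and 161 to 319.6 CPM in RYGB, so that GB-IL 4 was lowest in its group for the markers and for *Hmox1*, though above every DIO liver for the markers. The means were 749 ± 329 CPM in GB-IL (SD, n = 4) and 177 ± 49.9 CPM in DIO (n = 5; exact two-sided permutation p = 0.00794, adjusted p = 0.103 over 39 tests of marker lists).

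The 8 Kupffer cell markers found in the table, of 9 listed, overlapped between the groups, at 345 to 1687 CPM in GB-IL and 466 to 743 CPM in DIO (exact permutation p = 0.325). Neutrophil markers reached 113, 50.02 and 459.7 CPM in GB-IL 1, 2 and 3 and 161 CPM in RYGB 5, whereas GB-IL 4 held 7.08 CPM and the DIO livers 5.73 to 10.99 CPM. Cholangiocyte markers summed to 313, 252, 221 and 72.2 CPM in GB-IL livers 1 to 4. The sums were 47.8 to 76.2 CPM in DIO and 75.9 to 95.5 CPM in RYGB. The mean sum was 215 CPM in GB-IL, 84.5 CPM in RYGB and 57.5 CPM in DIO, so the GB-IL mean lay farther from DIO. The exact two-sided permutation p against DIO was 0.0159 (adjusted p = 0.103) for GB-IL and for RYGB, and does not measure the size of the difference. Of the 6 tested cholangiocyte markers 5 had higher means in GB-IL than in DIO. *Krt7*, *Krt19* and *Spp1* were called higher there, against 3.15% of all tested genes. In RYGB against DIO all 6 had higher means and 0 were called. None of the 8 listed was at 0 throughout, and GB-IL 1, 2 and 3 were also apart in *Hmox1*, *Cat* and *Ephx1*. The part of these cells in the levels of these genes was not tested.

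**Figure D2:**
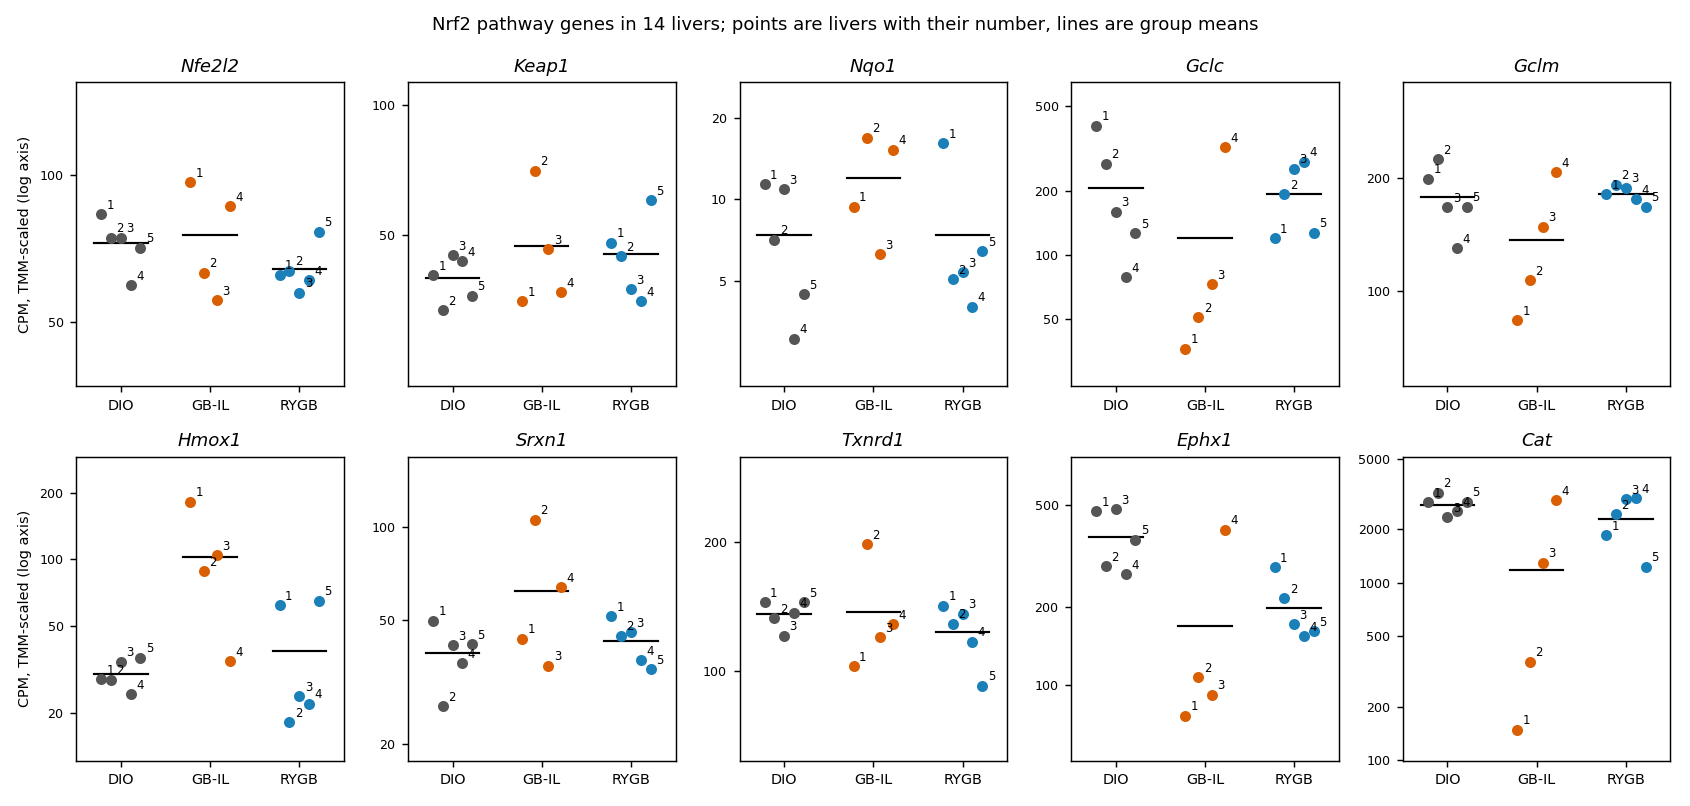
Level of each of the 10 genes (y axis, CPM scaled by TMM, log axis) in every liver, numbered within its group, with lines at the group means. In *Hmox1*, GB-IL 1 to 3 sit at 88.4 to 183 CPM and GB-IL 4 at 34.5 CPM, and in *Cat* and *Ephx1* the same 3 livers sit below all DIO livers.

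The sensor and its transcription factor differed little between the groups. *Nfe2l2* (chr2:75675513-75704641, minus strand) had 72.5 ± 8.54 CPM in DIO (SD, n = 5), 75.4 ± 19.3 CPM in GB-IL (n = 4) and 64.3 ± 7.25 CPM in RYGB (n = 5). The log2 fold change of GB-IL against DIO was 0.06 ± 0.18 (SE; edgeR's quasi-likelihood test, adjusted p = 0.864), and its sign turned with the livers included. *Keap1* (chr9:21229730-21239361, minus strand) had 39.7 ± 4.83, 47.2 ± 16.3 and 45.1 ± 9.95 CPM in the same order. GB-IL 2, at 70.5 CPM, and RYGB 5, at 60.2 CPM, were the highest of the 14 livers for *Keap1*. Without GB-IL 2 its log2 fold change of GB-IL against DIO went from 0.25 to -0.02. Exons of *Keap1* share 510 bases with an antisense gene, Gm16754, and with the strand setting of the counting unknown their reads cannot be told apart.

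*Gclc* and *Gclm* encode the catalytic and the modifier subunit of glutamate cysteine ligase, the rate-limiting enzyme of glutathione synthesis. For *Gclc* (chr9:77754535-77794485, plus strand) the DIO livers had 404, 268, 159.6, 78.6 and 127 CPM. GB-IL livers 1 to 4 had 36.3, 51.1, 73.0 and 319.8 CPM, and the RYGB livers had 120.0, 193, 254, 274 and 127 CPM. GB-IL 1, 2 and 3 were below all DIO livers, and GB-IL 4 was above 4 of the 5. The log2 fold change of GB-IL against DIO was -0.79 ± 0.60 (SE; edgeR's quasi-likelihood test, adjusted p = 0.416).

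*Gclc* stood out by its spread among the unoperated mice. The highest DIO liver had 5.13 times the level of the lowest, and the coefficient of variation was 62.7%. The median over all tested genes was 20.5%, and 4.18% of genes varied more than *Gclc*. *Gclm* (chr3:122245557-122270732, plus strand) varied less, from 130.1 to 224 CPM in DIO and from 168 to 192 CPM in RYGB, and in GB-IL livers 1 to 4 it had 83.8, 107, 148 and 207 CPM. GB-IL 1 and 2 were below all DIO livers. Its log2 fold change was -0.38 ± 0.24 (SE, adjusted p = 0.334 by edgeR's quasi-likelihood test). Exons of *Gclm* share 296 bases with an antisense transcript and 244 bases with a pseudogene, whose reads could not be separated.

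The thioredoxin arm was represented by *Txnrd1* and *Srxn1*. *Txnrd1* (chr10:82833951-82897712, plus strand), thioredoxin reductase 1, was the steadiest gene of the set in DIO, at 121 to 145 CPM with a coefficient of variation of 7.32%. In GB-IL it had 102, 198, 119.6 and 128 CPM, on both sides of the DIO range, and the mean was 137 ± 42.0 CPM against 136 ± 9.95 CPM in DIO. *Srxn1* (chr2:152105516-152111376, plus strand) encodes sulfiredoxin, which restores overoxidized peroxiredoxins. Its levels were 43.7, 105.8, 35.7 and 64.1 CPM in GB-IL livers 1 to 4, and 26.4 to 49.98 CPM in DIO. GB-IL 2 and GB-IL 4 were above all DIO livers and the other two within their range. *Srxn1* differed by 0.67 ± 0.28 (log2, SE; edgeR's quasi-likelihood test, unadjusted p = 0.0285, adjusted p = 0.171), and without GB-IL 2 by 0.28 (adjusted p = 0.532).

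*Nqo1* (chr8:107388225-107403206, minus strand), the quinone reductase often read as a marker of Nrf2 activity, was the lowest of the set. The DIO livers had 11.4, 7.09, 10.9, 3.06 and 4.47 CPM, GB-IL livers 1 to 4 had 9.40, 16.9, 6.28 and 15.2 CPM, and the RYGB livers had 16.1, 5.08, 5.39, 4.01 and 6.44 CPM. GB-IL 2, GB-IL 4 and RYGB 1 were above all DIO livers. These values rest on raw counts of 54 to 413 per liver. GB-IL differed from DIO by 0.70 ± 0.46 (log2, SE; edgeR's quasi-likelihood test, adjusted p = 0.35).

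*Ephx1* (chr1:180976210-181020904, minus strand) encodes microsomal epoxide hydrolase, which turns epoxides into diols. Its exons share 72 bases with a pseudogene on the same strand, Gm36961, whose reads could not be separated. The DIO livers had 474, 289, 482, 269 and 367 CPM, GB-IL livers 1 to 4 had 75.7, 107, 91.3 and 401 CPM, and the RYGB livers had 286, 217, 172, 154 and 162 CPM. GB-IL 1, 2 and 3, as well as RYGB 2, 3, 4 and 5, lay below all DIO livers. The log2 fold change was -1.16 ± 0.44 (SE) for GB-IL (unadjusted p = 0.0184, adjusted p = 0.141) and -0.93 ± 0.40 for RYGB (unadjusted p = 0.0371, adjusted p = 0.547), both by edgeR's quasi-likelihood test. Both comparisons share the DIO livers. When limma's voom weighted each liver by its quality, *Ephx1* was called lower in both, at -1.545 (adjusted p = 0.0263, 0.554% of all tested genes being called lower) and -0.93 (adjusted p = 0.0226, 5.77% of all tested genes).

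*Cat* (chr2:103453849-103485160, minus strand) encodes catalase. The DIO livers had 2842, 3213, 2351, 2524 and 2859 CPM, GB-IL livers 1 to 4 had 148, 359, 1296 and 2927 CPM, and the RYGB livers had 1852, 2432, 2953, 2997 and 1232 CPM. The GB-IL livers differed 19.8-fold among themselves, GB-IL 1 to 3 being below every DIO liver and GB-IL 4 above 4 of the 5. The log2 fold change was -1.22 ± 0.61 (SE; edgeR's quasi-likelihood test, adjusted p = 0.24). Of 26 tested genes for other peroxisomal proteins, 24 had lower means in GB-IL than in DIO, as had 6689 of all 14252 tested genes. Their median log2 fold change was -0.64 (0.04 over all tested genes), and 0 were called. An unadjusted p under 0.05 was reached by 6 of them, all lower, and by 23.1% of all tested genes in either direction. In RYGB against DIO 24 of the 26 also had lower means, with a median of -0.28 (0.01 over all tested genes) and 0 called. Pericentral hepatocyte markers were below the DIO range in GB-IL 1 and 2 and just under it in GB-IL 3. They were at 4536, 2659, 10670 and 12840 CPM in GB-IL livers 1 to 4 and 10720 to 14390 CPM in DIO. RYGB livers 1 to 5 had 16050, 10450, 13880, 14440 and 3483 CPM, so RYGB 2 and RYGB 5 were also below the DIO range. RYGB 1 had the highest sum of the 14 livers, though its *Cat* level was below every DIO liver. Of the 11 markers, none was at 0 throughout and 10 had lower means in GB-IL, and their part in the level of *Cat* was not tested.

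The calls turned on GB-IL 4. Without it, 5 genes of the set passed in GB-IL against DIO in place of 1, while 24.6% of all tested genes were called, 15.4% as higher and 9.27% as lower. *Hmox1* was higher at 2.04 (log2, adjusted p = 0.00358), and 4 genes were lower by edgeR's quasi-likelihood test: *Ephx1* at -2.05 (adjusted p = 0.000632), *Cat* at -2.20 (0.0131), *Gclc* at -1.96 (0.0134) and *Gclm* at -0.66 (0.0402). The other 5 genes did not pass, *Nqo1* at 0.55, *Srxn1* at 0.64, *Keap1* at 0.34, *Txnrd1* at 0.03 and *Nfe2l2* at -0.02. GB-IL 4 was singled out from its values for many genes, these among them, so leaving it out lowers the spread by construction. The plot of left-out livers shows how far each liver moved 4 of the genes.

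**Figure D3:**
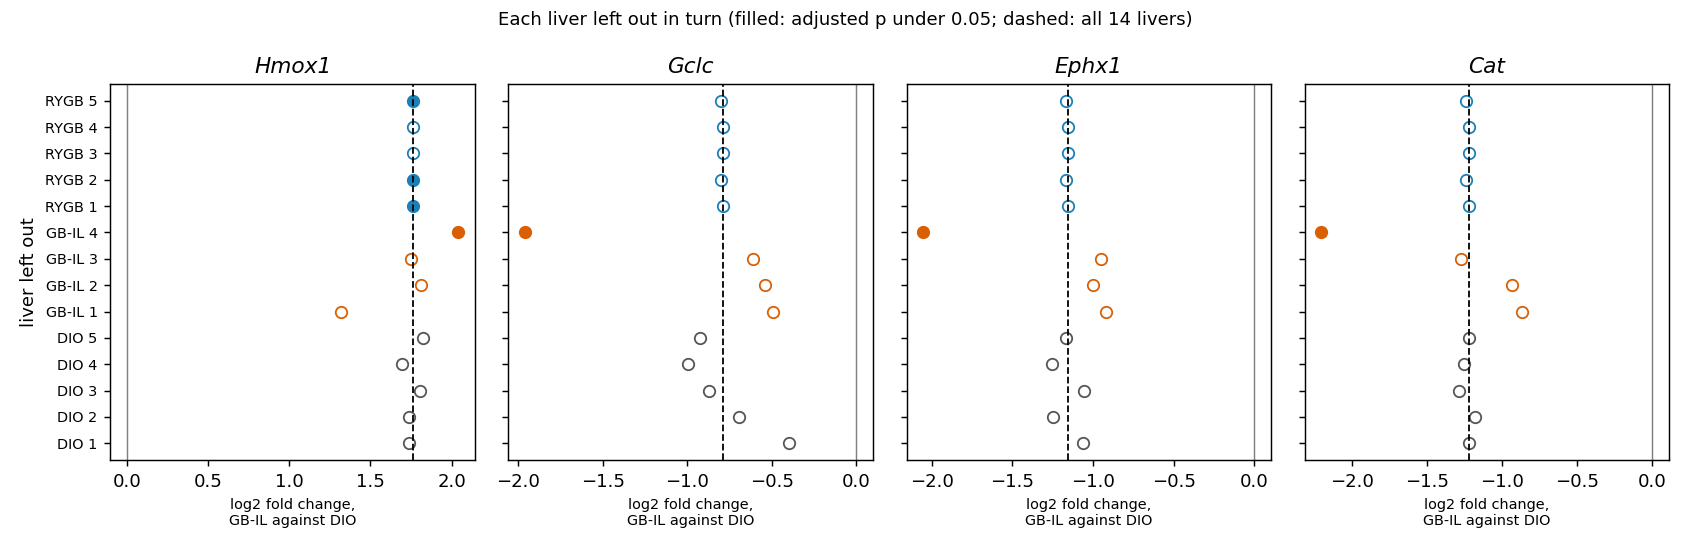
Log2 fold change of GB-IL against DIO (x axis) for *Hmox1*, *Gclc*, *Ephx1* and *Cat* with each of the 14 livers left out in turn (y axis), dashed lines at the value with all livers and filled points for an adjusted p under 0.05. Leaving out GB-IL 4 moves all 4 genes away from 0, to 2.04, -1.96, -2.05 and -2.20.

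The second comparison asked whether the genes differ after gastric bypass. By edgeR's quasi-likelihood test 0 of the 10 genes were called in RYGB against DIO, as were 0% of all tested genes, and 1 gene of the set, *Ephx1*, had an unadjusted p under 0.05, against 8.71% of all tested genes. DESeq2 and the exact test of edgeR also called 0 of the 10, with 0.684% and 0.302% of all tested genes called. The means of 5 genes were higher and of 5 lower than in DIO, with a median log2 fold change of -0.05 (0.01 over all tested genes), and the ranges of the groups overlapped for all 10 (they were apart for 3.53% of all tested genes). *Hmox1* was at 0.34 ± 0.42 (SE) and *Cat* at -0.27 ± 0.56, both within their error. Without RYGB 5 *Hmox1* was at 0.06 and *Cat* at -0.10, and with voom weighted by liver quality *Hmox1* was at -0.24 and *Gclc* at 0.61. Without RYGB 1, *Nqo1* went from 0.00 to -0.49. *Gclm* was nearly level, at 181 ± 9.66 CPM against 178 ± 35.7 CPM (SD, n = 5 each).

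Set directly against each other, the operations were not shown to differ in any of the 10 genes. By edgeR's quasi-likelihood test 0 of the 10 were called in GB-IL against RYGB (0% of all tested genes), and 1 had an unadjusted p under 0.05 (22.1% of all tested genes). All 10 overlapped between the operations, and 2.84% of all tested genes did not. The gene under 0.05 was *Hmox1*, at a log2 fold change of 1.43 ± 0.44 (SE, adjusted p = 0.115), and DESeq2 (adjusted p = 0.0317) and the exact test of edgeR (adjusted p = 0.0387) called it higher, as they did 4.61% and 3.96% of all tested genes. *Ephx1*, with lower means than in DIO after both operations, differed by -0.23 ± 0.43 between them. *Cat* differed by -0.96 ± 0.60 and *Gclc* by -0.69 ± 0.60 between the operations. Without GB-IL 4, *Hmox1* at 1.71 and, on the lower side, *Gclc* at -1.86, *Cat* at -1.94, *Ephx1* at -1.13 and *Gclm* at -0.68 passed, while 21.5% of all tested genes were called, 13.4% as higher and 8.09% as lower.

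Relations between genes of the set were tested among the 10 DIO and RYGB livers, since a correlation over all livers would rest on the GB-IL livers that stood apart. Of the 45 pairs of genes 1 passed a permutation test. *Keap1* and *Cat* were inversely related (Pearson's r = -0.955, Spearman's rho = -0.988, each permutation p = 1e-05, the smallest that 100000 resamples can give, adjusted p = 0.00045). Without RYGB 5 and DIO 2, the livers farthest out for *Keap1*, r was -0.901. Among 14179 genes, 10 others had a larger absolute r with *Cat*. Among the GB-IL livers, GB-IL 1 departed from this order, with the lowest *Cat* level and a *Keap1* level of 35.2 CPM, within the DIO range. GB-IL 2, 3 and 4 kept it, with *Keap1* at 70.5, 46.4 and 36.9 CPM and *Cat* at 359, 1296 and 2927 CPM. Over all 14 livers, r was -0.362 and rho was -0.688.

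Both subunits of glutamate cysteine ligase were less closely related in the same 10 livers, with r = 0.788 (permutation p = 0.00561, adjusted p = 0.126) and rho = 0.697 (permutation p = 0.0306, adjusted p = 0.535). Over all 14 livers r was 0.91 and rho was 0.868, values on which the GB-IL livers that stood apart weigh heavily. In the 10 livers, 435 others of 14179 genes had a larger absolute r with *Gclc* than 0.788, and 212 with *Gclm*. Without DIO 1 and DIO 4, r was 0.62. *Hmox1* and *Cat* had r = -0.771 (permutation p = 0.0122, adjusted p = 0.182) and rho = -0.552 (permutation p = 0.106, adjusted p = 0.535), but without RYGB 1 and RYGB 5 r was 0.081, so the relation rested on these livers.

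**Figure D4:**
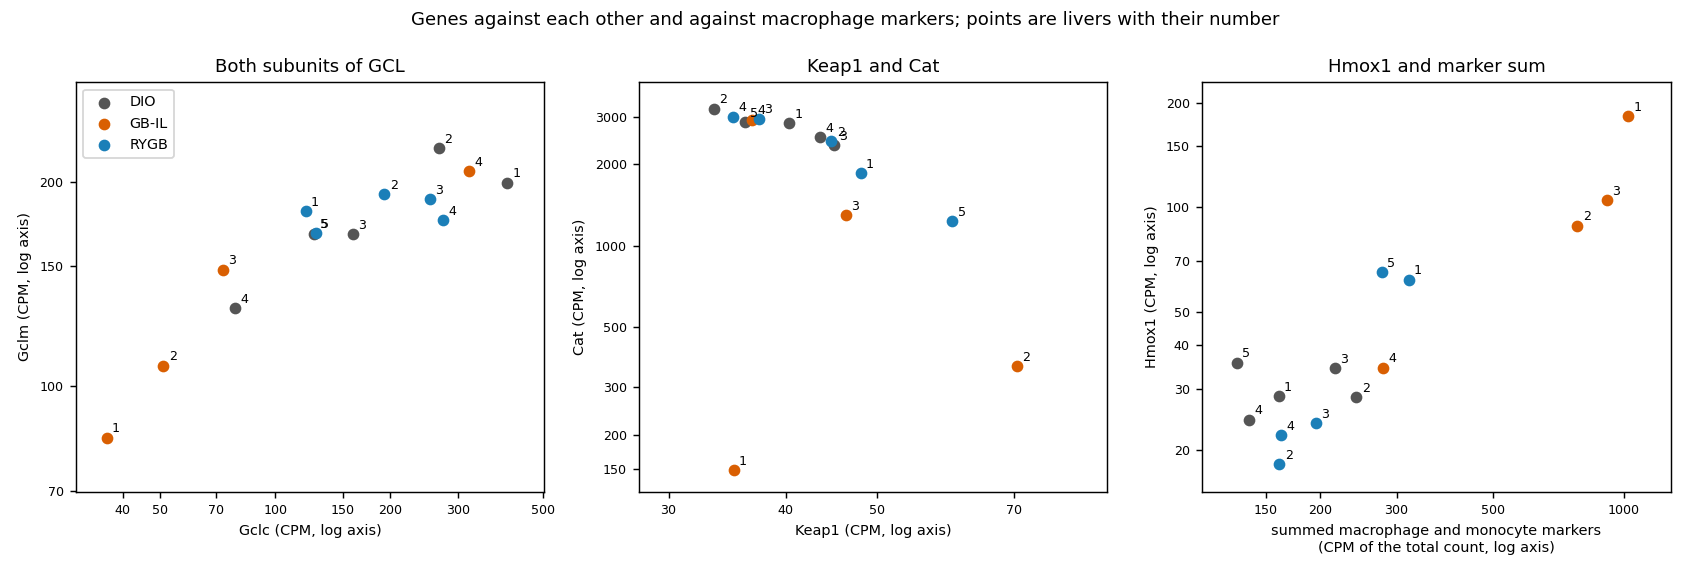
Levels per liver, numbered within the group, of *Gclm* against *Gclc*, of *Cat* against *Keap1*, and of *Hmox1* against the summed macrophage and monocyte markers (all axes CPM, log axes). *Cat* is lower where *Keap1* is higher among the DIO and RYGB livers (r = -0.955) with GB-IL 1 far below, and GB-IL 1 to 3 hold the highest levels of *Hmox1* and of the markers.

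The genes whose log2 CPM followed the set most closely over all 14 livers are given as a description, since the GB-IL livers that stood apart weigh heavily on such correlations. *Hmox1* was most like *Ppp1r18* (r = 0.981), *Ppp1r9b* (0.974) and *Emilin2* (0.952), and over the 10 DIO and RYGB livers these values were 0.931, 0.94 and 0.834. For the other genes of the set, r over these 10 livers ran from 0.647 (*Nfe2l2* with *Ddx50*) to 0.956 (*Cat* with *Ghr*). The values that follow are over all 14. *Cat* was most like *Keg1* (0.988), *Ipo8* (0.986) and *Ghr*, the growth hormone receptor (0.986). *Gclc* was followed by *Rnf11* (0.96), *Usp24* (0.94) and *Smarcc1* (0.939), and *Gclm* by *Acbd5* (0.961), *Ugt2b34* (0.954) and *Gpr125* (0.954). *Ephx1* was most like *Pnldc1* (0.938), *Khdrbs3* (0.937) and *Me1*, malic enzyme 1 (0.937). *Keap1* went with *Pop7* (0.928), *Cbr1* (0.91) and *Irf2bp1* (0.903), and *Txnrd1* with *Creld1* (0.901), *Mrps36* (0.894) and *Zfp296* (0.893). For *Srxn1* the nearest were *Mrvi1* (0.899), *Bbip1* (0.889) and *Arpp19* (0.866), and for *Nqo1* they were *Cyp2a4* (0.878), *Klf16* (0.823) and *Rcan2* (0.805). *Nfe2l2* went with *Pparg* (0.843), *Ddx50* (0.841) and *Zak* (0.831).

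Beyond the set, 141 genes of the wider defence were counted in 9 lists, chosen with earlier results of these data known, and 137 of these genes were tested. In GB-IL against DIO 51 had higher and 86 lower means, with a median log2 fold change of -0.22 (0.04 over all tested genes), and 5 rose by edgeR's quasi-likelihood test while 0 fell. The background was 3.26% of all tested genes called, 3.15% as higher, so 5 of 137 is close to it. These 5 calls were lost in a fit of DIO and GB-IL alone, with the replicate block, without any of the DIO livers, and without GB-IL 1 or GB-IL 2, where 0 genes of the lists were called. Among the 18 genes for control proteins of Nrf2 the called gene was *Mafk*, a small Maf partner, at 27.6 ± 14.9 CPM in GB-IL (SD, n = 4) and 13.2 ± 1.16 CPM in DIO (n = 5; adjusted p = 0.0426). *Nfe2*, a relative of *Nfe2l2* known from blood cells, was at 2.58 on the log2 scale (adjusted p = 0.0773).

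Of 17 tested genes of glutathione synthesis and use, 9 were higher and 8 lower, and *Gpx3*, the secreted glutathione peroxidase, was called, at 161 ± 170.3 CPM against 7.82 ± 1.19 CPM (log2 fold change 4.36, adjusted p = 0.031 by edgeR's quasi-likelihood test). *Slc7a11*, the cystine transporter, had 2.42 (adjusted p = 0.0537). The 13 genes of haem and iron handling held 9 with higher means, among them *Hpx*, haemopexin, and *Hp*, haptoglobin, plasma proteins that bind haem and haemoglobin. Both were called higher, by 2.54 and 2.19 on the log2 scale (adjusted p = 0.0278 and 0.0375 by edgeR's quasi-likelihood test). Over all tested genes 3.15% were called higher, and 7563 of 14252 had higher means.

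In the quinone, epoxide and carbonyl list 19 of 25 genes were lower and 6 higher, with a median log2 fold change of -0.59, and *Akr1b3*, aldose reductase, was called higher at 1.201 (adjusted p = 0.0366, edgeR's quasi-likelihood test). *Cbr3*, a carbonyl reductase, was at 2.44 (adjusted p = 0.0503). In the thioredoxin and peroxiredoxin list (10 of 16 lower) *Sesn2* was at 1.26 and *Txnrd2* at -0.55. For NADPH supply (7 of 11 lower) *Me2* was at 1.03 and *G6pdx* at 1.00, for the efflux transporters (4 of 7 lower) *Abcc4* was at 1.23 and *Abcc1* at 0.79, for the superoxide dismutases (3 of 4 lower) *Ccs* was at -0.30 and *Sod2* at -0.06, and for the peroxisome list *Pex10* was at -0.80 and *Hsd17b4* at -0.90. These 5 lists held no called gene.

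Without GB-IL 4, 57 genes of the lists were called in GB-IL against DIO, 20 higher and 37 lower, among them 15 lower in the peroxisome list and 10 lower and 2 higher in the quinone, epoxide and carbonyl list. In the same fit 15.4% of all tested genes were called higher and 9.27% lower. The higher calls of the lists, 20 of 137, were close to their share, and the lower calls, 37 of 137, were above theirs. This excess was not tested, as GB-IL 4 had been singled out from its values. In RYGB against DIO 37 of the 137 tested genes were higher and 100 lower, with a median of -0.19, and in GB-IL against RYGB 66 were higher and 71 lower. In both comparisons 0 of them passed the quasi-likelihood test of edgeR, and 18 and 26 had an unadjusted p under 0.05, where 8.71% and 22.1% of all tested genes did.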

How the data were processed

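Liver RNA from 14 mice was analysed, grouped by the sample labels as DIO, GB-IL and RYGB. The authors amplified total RNA with the Ovation kit, sequenced it on the Illumina HiSeq, aligned it to mm10 with TopHat 2 and used HTSeq for the counts per gene, deposited raw. For tool versions, annotation and strand, the protocols and labels were searched: not given in the sources used here. Of 2 stranded TruSeq kits in the labels, for mRNA and total RNA, it is not said which liver had which, so a kit effect and a group effect cannot be told apart.

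The models were fitted with edgeR 4.0.16 under R 4.3.3 (filterByExpr, TMM, quasi-likelihood test of all 14 livers, robust estimation off, Benjamini-Hochberg adjustment over 14252 genes, FDR 0.05), DESeq2 1.42.0 and limma 3.58.1. Permutations ran in R and in Python 3.11.15 (scipy 1.17.1). The step was tested on simulated data. CPM are scaled by TMM, and marker sums are CPM of the total count. RPKM use the summed exon length of GENCODE M21, which matched 24701 genes. The tested correlations between genes of the set use log2 CPM without a prior count, and the other correlations use a prior count of 2.

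The genes and lists were chosen with earlier results of these data known. Named beside the set are, in each pathway list, the 2 genes with the smallest p in GB-IL against DIO and, for each gene of the set, the 3 most correlated genes, and marker genes where a sum turns on them. Same-numbered livers of different groups did not deviate together (mean r = -0.039 over 13 pairs), so no pairing was assumed. The alternatives were other scalings, tests, filters, a fit of the 2 compared groups, a replicate block, a minimum fold change and each liver left out.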

Additional observations from a re-analysis of the deposited data

Results flagged for a closer look

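For each of the 10 genes and 3 groups, the distance of the outermost liver from its nearest neighbour was set against the range of the group (Dixon's test at the 95% level). Of the 30 groups 3 held a liver apart, and chance alone marks about 1 group in 20. *Gclc* in GB-IL 4 was at 319.8 CPM, and the next highest GB-IL liver was at 73.0 CPM. *Ephx1* in the same liver was at 401 CPM, next to 106.9 CPM. *Nqo1* in RYGB 1 was at 16.1 CPM, next to 6.44 CPM, and without this liver its log2 fold change of RYGB against DIO went from 0.00 to -0.49 (adjusted p = 0.679 by edgeR's quasi-likelihood test).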

How the results depend on the processing

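Under alternatives, of the 750 log2 fold changes of the 10 genes, 691 kept their direction and side of the threshold, 33 changed sign, 13 gained and 13 lost significance. The cause was not tested. The count of all genes called in GB-IL against DIO (465) was 1292 (DESeq2), 1127 (exact test of edgeR), 0 in a fit of the 2 compared groups, and 0 to 3572 with 1 liver left out. In RYGB against DIO (0 genes) it was 97 with DESeq2, 1690 with voom and sample quality weights, 43 with the exact test, 33 in the fit of the 2 groups and 0 to 5 with 1 liver left out. In GB-IL against RYGB (0 genes) it was 845, 115 and 678 with DESeq2, voom and the exact test, 51 without a filter on low counts and 0 to 3120 with 1 liver left out. Of the 10 genes, the call of *Hmox1* was lost with the 2 groups (adjusted p = 0.0846, 0 called), and 0 to 5 genes were called with 1 liver left out in GB-IL against DIO and in GB-IL against RYGB. Voom called 1 gene, *Ephx1*, in RYGB against DIO, and DESeq2 and the exact test 1 each, *Hmox1*, in GB-IL against RYGB.

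With the replicate number as a block, 1 gene and 0 of the 10 were called in GB-IL against DIO (*Hmox1*, adjusted p = 0.0694), and 0 genes of the pathway lists. The block also turned *Txnrd1* in that comparison to -0.053 and *Nqo1* in RYGB against DIO to -0.041, but the numbers do not pair the mice.

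Counts of the pathway lists (137 genes tested with all livers) were chosen after seeing the data. GB-IL against DIO gave 20 called with DESeq2, 17 with voom and 14 with the exact test (5 in the main fit). Over all genes these settings called 1292, 589 and 1127. The fit of the 2 groups gave 0, as over all genes. With 1 liver left out it was 0 to 57, the 57 without GB-IL 4, where 24.6% of all tested genes were called. RYGB against DIO gave 29 with voom (1690 over all genes), 2 with the 2 groups (33 over all genes) and 0 to 1 with 1 liver left out. GB-IL against RYGB gave 7 with DESeq2 (845 over all genes) and 4 with the exact test (678 over all genes). With 1 liver left out it gave 0 to 36, the 36 without GB-IL 4, where 21.5% of all tested genes were called.

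Signs turned as follows. In RYGB against DIO *Nqo1* went to -0.013 with RLE scaling, -0.011 with DESeq2, -0.001 in the fit of the 2 groups, and -0.49 to 0.21 with 1 liver left out. With voom *Gclc* went to 0.61 and *Hmox1* to -0.24 there, and with 1 liver left out *Gclc* ran from -0.31 to 0.30 and *Gclm* from -0.068 to 0.13. In GB-IL against DIO *Nfe2l2* went to -0.11 with voom and -0.091 to 0.18 with 1 liver left out. *Txnrd1* went to -0.10 with voom, -0.007 without a filter and -0.23 to 0.13 with 1 liver left out, and *Keap1* ran from -0.024 to 0.36. In GB-IL against RYGB *Keap1* ran from -0.21 to 0.18, *Txnrd1* from -0.091 to 0.27 and *Ephx1* from -1.13 to 0.008. The difference in summed hepatocyte markers, GB-IL minus DIO, ran from -12300 to 458 CPM.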
